A study of Homo sapiens with 9 samples.

Results

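The genes described here are 34 targets and regulators of the sterol regulatory element-binding proteins (SREBPs), taken by name from a table of 19257 genes. They comprise 18 enzymes of sterol synthesis, the sterol carrier STARD4, 3 enzymes that supply acyl units, 7 enzymes of fatty acid synthesis and activation, and 5 regulators. All 34 were listed, and all 34 passed the filter on low counts that left 12574 genes for testing. RNA was sequenced from A549, a human lung adenocarcinoma line, in 9 libraries of 3 each. The first group (OGT_KO) carried a Lenti-CRISPR-V2 plasmid against OGT, the gene of O-GlcNAc transferase, which puts a single sugar on nuclear and cytosolic proteins. The second (TR11B_KO) carried such a plasmid against TR11B, taken to be TNFRSF11B, the gene of the decoy receptor osteoprotegerin, from the UniProt name of that protein. The third (NC, labelled WT by genotype) carried the empty plasmid, and all 3 groups were kept in serum-containing DMEM. The labels call the libraries of a group biological replicates but do not say whether they were separate cultures, and p-values therefore reflect only the spread among these libraries, which may be technical.

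SREBPs are made as membrane proteins of the endoplasmic reticulum, from the genes SREBF1 and SREBF2. When sterols are scarce, SCAP escorts them to the Golgi, where proteases release the part that enters the nucleus and binds promoters. When sterols are plentiful, the INSIG proteins hold SCAP back. The SREBF2 product is known mainly for driving the sterol enzymes, and the SREBF1 product for driving fatty acid synthesis and desaturation. Serum in the medium brings sterols to cells. In the lung, alveolar type II cells make the lipids of surfactant, and A549 is widely used as a model of these cells.

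Library totals lay between 38327508 and 42245970 counts. Levels are given as CPM, counts scaled to a common library total after TMM, a normalization that trims extreme genes. TR11B_KO replicate 2 stood apart, with a scaling factor of 0.784 where the others lay between 0.951 and 1.16. OGT itself had 927, 1255 and 960 counts in OGT_KO, 716, 356 and 484 in TR11B_KO, and 1239, 1143 and 967 in NC. TNFRSF11B had 1, 0 and 0 counts in OGT_KO, 3, 1 and 0 in TR11B_KO, and 13, 15 and 3 in NC. Because OGT mRNA was not lower in the libraries labelled OGT_KO (edgeR log2 fold change −0.17, adjusted p = 0.607), while it was in TR11B_KO (−0.99, adjusted p = 0.00393), group names below stand for the labels. Of 6 epithelial markers, the keratins KRT7, KRT8 and KRT18 were abundant, while CDH1 was at 0 everywhere. EPCAM had at most 2 counts in a library and KRT19 at most 17. The summed epithelial level was 11500 to 14600 CPM in OGT_KO, 16400 to 25800 in TR11B_KO and 20000 to 22600 in NC. Of 8 alveolar type II markers, 3 were listed, and their summed level was 125 to 158 CPM in OGT_KO, 122 to 313 in TR11B_KO and 169 to 187 in NC. That sum was almost all ABCA3, which alone lay at 121 to 313 CPM over the 9 libraries. The other listed markers, NAPSA and LAMP3, had at most 9 counts in a library. Summed fibroblast (3 of 5 listed), endothelial (3 of 4 listed) and adipocyte or hepatocyte markers (4 of 6 listed) stayed at or below 0.871, 0.485 and 0.333 CPM in every library. Leukocyte markers, 2 of 5 of which were listed, reached 3.98 CPM in OGT_KO, 4.32 in TR11B_KO and 6.33 in NC. The part of these differences in the results was not tested. In bulk RNA, fewer cells making a transcript and less of it per cell cannot be told apart.

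Sterol enzymes such as MVD, FDFT1 and CYP51A1 rose in each knockout against NC. The fatty acid desaturase SCD and the acyl-CoA synthetase ACSL3 rose in OGT_KO and were also higher there than in TR11B_KO. AACS, which activates acetoacetate, fell in each. In OGT_KO against NC, 12 of the 34 genes rose and 1 fell in edgeR's quasi-likelihood test at an adjusted p under 0.05. That was 35.3% and 2.94% of the members, beside 8.26% and 10.1% of all tested genes, or 38.2% of members called either way beside 18.3%. In TR11B_KO against NC, 10 rose and 3 fell, 29.4% and 8.82% of the members, beside 13.2% and 14.3% of all tested genes, and 38.2% of members called either way beside 27.6%. The TR11B_KO split was 12 and 1 with DESeq2, 11 and 1 with RLE size factors and 8 and 4 with library totals alone. The median log2 fold change over the 34 was 0.55 in OGT_KO and 0.08 in TR11B_KO, and over all tested genes 0.03 and −0.01. The TR11B_KO median was −0.09 with library totals alone. Between the knockouts directly, OGT_KO was higher than TR11B_KO at 8 genes and lower at 5, that is 23.5% and 14.7% of members beside 16.7% and 16.5% of all tested genes, and 38.2% called either way beside 33.2%. That split was 14 and 5 with library totals alone. Libraries of OGT_KO and NC did not overlap at 22 members on the higher side and 4 on the lower (64.7% and 11.8%), beside 24.2% and 25.6% of all tested genes and 49.8% either way. For TR11B_KO and NC this held at 11 and 3 members (32.4% and 8.82%), beside 19% and 21.9%, and 40.9% either way. For OGT_KO and TR11B_KO it held at 14 and 5 members (41.2% and 14.7%), beside 24.6% and 20.3%, and 44.9% either way. The 3 NC libraries serve as reference for each knockout, so the paired values below are not independent of each other.

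**Figure D1:**
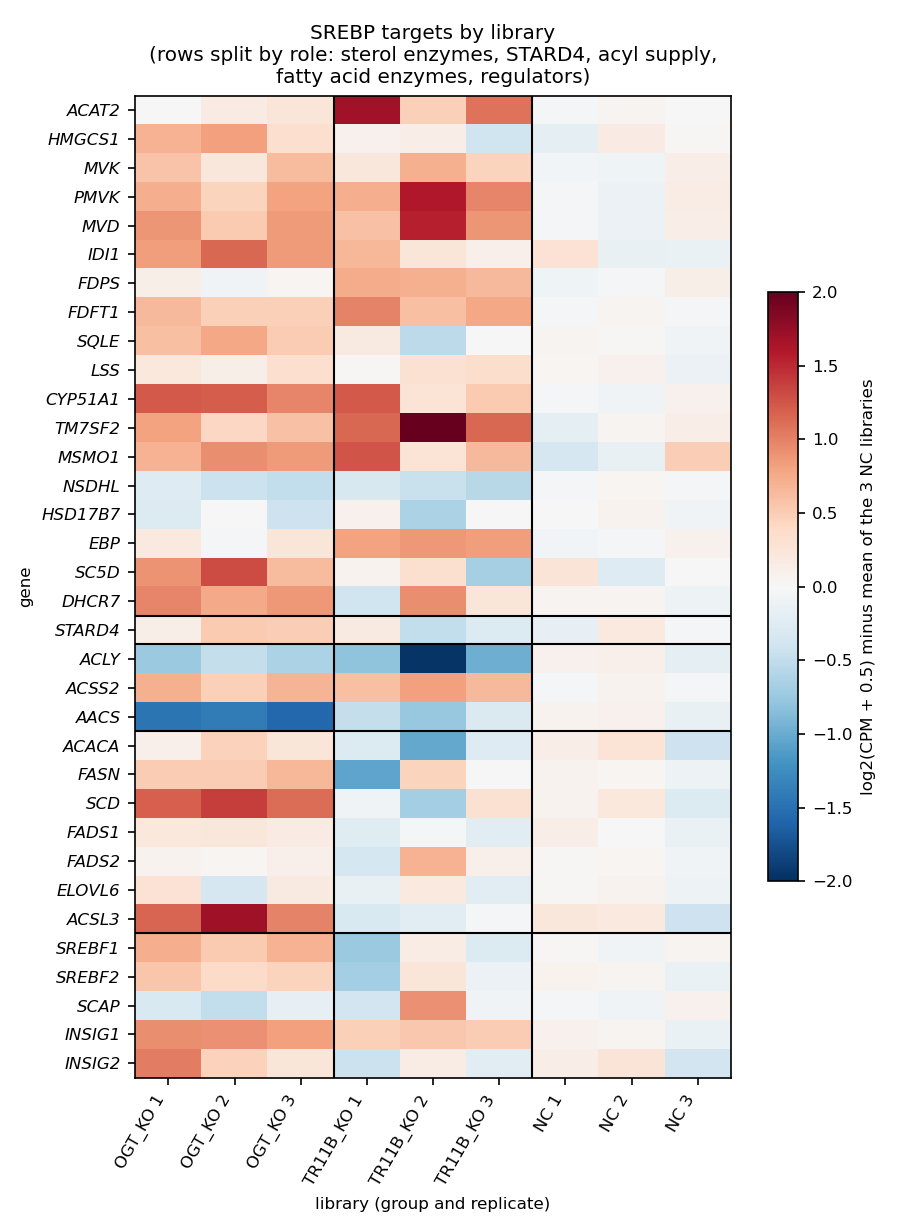
Each row is a member and each column a library; colour gives the log2 level in that library minus the NC mean, on a scale from lower to higher than NC. CYP51A1, INSIG1 and MVD were above the NC mean in all 6 knockout libraries, SCD and ACSL3 lay well above it in the 3 OGT_KO libraries, and AACS lay below it in all 6.

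Promoters were examined because the members share a known class of regulator. RefSeq windows of GRCh38.p14, from 250 bases before to 50 after each annotated start, were at hand for 30 of the 34 members. The letters searched on both strands were TCACNCCAC, a form of the sterol regulatory element, CCAAT, the box bound by NF-Y, GGGCGG, the GC box bound by SP1, and CACGTG, a palindromic E-box. CCAAT lay in the windows of 22 of 30 members (73.3%), including 13 of 15 sterol enzymes (86.7%) and 4 of 6 fatty acid enzymes (66.7%), beside 42.8% of 10102 tested genes and 39.7% of all 27305 genes with a window. GGGCGG lay in 29 of 30 (96.7%), beside 78.5% of tested genes and 48.3% of all genes. CACGTG lay in 4 of 30 (13.3%), those of LSS, SC5D, SCAP and INSIG1, beside 12.6% of tested genes and 8.77% of all genes. TCACNCCAC lay in 1 of 30 (3.33%), that of SREBF2, beside 1.45% of tested genes and 1.39% of all genes. These matches are descriptions of the letters in the windows. Of the 5 windows printed, each in the direction of its gene with matches to the searched letters in capitals, INSIG1 is shown as a gene that rose in both knockouts and MVD as the sterol enzyme with 3 CCAAT matches that rose in both. SCD is shown as a fatty acid gene that rose in OGT_KO, as ACSL3 also did. AACS is shown as the gene that fell in both and has no CCAAT match, and SREBF2 as the window with the sterol element. They lie at chr7:155297628-155297927 (plus strand), chr16:88663042-88663341 (minus strand), chr10:100346983-100347282 (plus strand), chr12:125065185-125065484 (plus strand) and chr22:41832855-41833154 (plus strand).
INSIG1: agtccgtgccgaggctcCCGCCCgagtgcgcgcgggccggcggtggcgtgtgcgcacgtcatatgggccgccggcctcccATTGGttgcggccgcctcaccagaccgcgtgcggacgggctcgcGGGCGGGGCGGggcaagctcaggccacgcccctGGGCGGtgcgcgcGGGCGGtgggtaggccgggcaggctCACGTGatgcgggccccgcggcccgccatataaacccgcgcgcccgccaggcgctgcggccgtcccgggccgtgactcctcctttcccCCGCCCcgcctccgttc
MVD: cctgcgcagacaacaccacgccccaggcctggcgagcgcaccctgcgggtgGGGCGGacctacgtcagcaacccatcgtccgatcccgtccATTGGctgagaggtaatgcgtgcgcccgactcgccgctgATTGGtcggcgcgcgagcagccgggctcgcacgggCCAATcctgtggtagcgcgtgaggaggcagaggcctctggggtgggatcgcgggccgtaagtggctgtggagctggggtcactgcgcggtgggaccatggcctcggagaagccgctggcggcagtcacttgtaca
SCD: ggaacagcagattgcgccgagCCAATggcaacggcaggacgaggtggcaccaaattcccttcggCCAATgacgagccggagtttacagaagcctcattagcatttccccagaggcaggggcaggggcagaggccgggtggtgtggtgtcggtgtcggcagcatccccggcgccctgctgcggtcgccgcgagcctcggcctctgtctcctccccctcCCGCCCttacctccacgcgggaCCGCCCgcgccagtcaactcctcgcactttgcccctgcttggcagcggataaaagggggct
AACS: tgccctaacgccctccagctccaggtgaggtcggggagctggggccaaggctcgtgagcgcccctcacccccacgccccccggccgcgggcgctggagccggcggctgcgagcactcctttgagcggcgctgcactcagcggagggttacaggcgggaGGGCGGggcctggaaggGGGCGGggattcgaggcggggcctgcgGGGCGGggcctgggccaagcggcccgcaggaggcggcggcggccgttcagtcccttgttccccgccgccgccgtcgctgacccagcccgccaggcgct
SREBF2: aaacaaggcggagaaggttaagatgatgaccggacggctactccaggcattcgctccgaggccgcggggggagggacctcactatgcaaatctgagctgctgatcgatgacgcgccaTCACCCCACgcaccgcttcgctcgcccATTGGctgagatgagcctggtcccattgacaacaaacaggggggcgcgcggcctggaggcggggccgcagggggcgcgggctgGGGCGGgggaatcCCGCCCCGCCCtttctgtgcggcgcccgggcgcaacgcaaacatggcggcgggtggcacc

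Among the 7 enzymes from acetyl-CoA to farnesyl diphosphate, 3 rose in OGT_KO and 4 rose in TR11B_KO, and none fell. That was 42.9% and 57.1% higher, beside 8.26% and 13.2% of all tested genes. Their median log2 fold change was 0.67 in OGT_KO and 0.70 in TR11B_KO. MVD (chromosome 16, 88651940 to 88663091), which decarboxylates mevalonate diphosphate, had 966, 755 and 946 CPM in OGT_KO, 788, 1551 and 966 in TR11B_KO, and 516, 488 and 580 in NC. Every knockout library lay above every NC library, and TR11B_KO replicate 2 was the highest. MVD rose by 0.75 ± 0.22 (log2 fold change ± SE, n = 3 libraries a group) in OGT_KO (edgeR adjusted p = 0.0325) and by 1.06 ± 0.23 in TR11B_KO (edgeR adjusted p = 0.00398). PMVK (chromosome 1, 154924740 to 154942658), the phosphomevalonate kinase of the step before it, had 247, 202 and 262 CPM in OGT_KO, 245, 453 and 292 in TR11B_KO, and 145, 137 and 165 in NC. The groups of PMVK did not overlap with NC either, and it rose by 0.67 ± 0.22 in OGT_KO (edgeR adjusted p = 0.0447) and by 1.14 ± 0.22 in TR11B_KO (edgeR adjusted p = 0.00209). In OGT_KO these calls were narrow. Without any single OGT_KO or NC library, MVD lay at 0.69 to 0.86 (adjusted p 0.0533 to 0.124), and PMVK, also without TR11B_KO replicate 3, at 0.59 to 0.77 (adjusted p 0.0589 to 0.157). The direct difference between the knockouts was −0.31 ± 0.22 for MVD (edgeR adjusted p = 0.305) and −0.48 ± 0.22 for PMVK (edgeR adjusted p = 0.102), so neither knockout could be placed above the other.

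ACAT2 (chromosome 6, 159762045 to 159779112), the cytosolic thiolase that opens the pathway, and FDPS (chromosome 1, 155308866 to 155320665), which makes farnesyl diphosphate, were higher in TR11B_KO than in either other group. ACAT2 had 65.1, 72.3 and 76.4 CPM in OGT_KO, 209, 89.8 and 138 in TR11B_KO, and 62.9, 66.8 and 64.4 in NC. The TR11B_KO libraries were widely spread but all lay above the other 6. FDPS had 412, 362 and 390 CPM in OGT_KO, 636, 624 and 599 in TR11B_KO, and 358, 374 and 411 in NC, so its TR11B_KO libraries lay close together and apart from the rest. Against NC, the OGT_KO values of ACAT2 and FDPS were 0.14 ± 0.24 and 0.03 ± 0.15 (edgeR adjusted p = 0.726 and 0.927), while in TR11B_KO ACAT2 rose by 1.17 ± 0.24 (edgeR adjusted p = 0.00332) and FDPS by 0.70 ± 0.15 (edgeR adjusted p = 0.00443). Directly, OGT_KO was lower than TR11B_KO, with log2 fold changes of −1.03 ± 0.24 at ACAT2 (edgeR adjusted p = 0.00514) and −0.68 ± 0.15 at FDPS (edgeR adjusted p = 0.00422). The ACAT2 calls did not pass with limma on log2(FPKM + 1) without a filter, where the adjusted p was 0.111 against NC, and the highest adjusted p of the direct call over the alternatives was 0.193. ACAT2 overlaps TCP1 by 615 bases on the opposite strand, and TCP1, whose log2 fold changes were −0.11 and −0.07, passed in neither comparison with NC. It also overlaps SOD2 by 237 bases on the opposite strand, and SOD2, with 76.6% as many counts, had −0.38 in OGT_KO and 0.36 in TR11B_KO (edgeR adjusted p = 0.245 and 0.234). The part of these overlaps in the ACAT2 result was not tested. FDPS has 10 annotated pseudogenes by symbol and overlaps the antisense RUSC1-AS1, which held 1.14% as many counts and had 0.58 in OGT_KO and 1.35 in TR11B_KO (edgeR adjusted p = 0.358 and 0.0281). Whether strand was kept in counting is not given in the sources used here, so the split of shared reads is uncertain.

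IDI1 (chromosome 10, 1039152 to 1056704), the isomerase that interconverts the isoprenoid building units, had 2.87, 3.72 and 2.93 CPM in OGT_KO, 2.499, 1.74 and 1.54 in TR11B_KO, and 1.82, 1.20 and 1.23 in NC. Only 48 to 165 counts lay behind these values in a library, and the OGT_KO libraries were above all others. IDI1 rose in OGT_KO by 1.16 ± 0.29 (edgeR adjusted p = 0.0141), but at 1.03 to 1.07 it did not pass without OGT_KO replicate 2 or NC replicate 2 or 3 (edgeR adjusted p 0.0595 to 0.0736). Its TR11B_KO value was 0.45 ± 0.30 (edgeR adjusted p = 0.281). IDI1 has 3 annotated pseudogenes by symbol and overlaps WDR37 by 320 bases on the opposite strand. WDR37 held 75.9% as many counts and had 0.48 in OGT_KO and −0.51 in TR11B_KO (edgeR adjusted p = 0.323 and 0.279), and its part in the IDI1 result was not tested. HMGCS1, which makes the substrate of mevalonate synthesis, had 8.60, 9.43 and 6.64 CPM in OGT_KO, 5.48, 5.64 and 3.77 in TR11B_KO, and 4.44, 5.79 and 5.24 in NC. Its OGT_KO libraries lay above the others, with a log2 fold change of 0.67 ± 0.24 that did not pass against NC (edgeR adjusted p = 0.0645). Against TR11B_KO, OGT_KO was higher at HMGCS1 by 0.73 ± 0.24 (edgeR adjusted p = 0.0306), a call that ended at 0.57 to 0.70 without TR11B_KO replicate 3 or OGT_KO replicate 1 or 2, with an adjusted p of 0.0895 to 0.124. The HMGCS1 call was also lost with either offset and with only the 2 groups compared, down to 0.21 (adjusted p = 0.453). MVK, the mevalonate kinase, lay at 136 to 181 CPM in OGT_KO, 136 to 191 in TR11B_KO and 109 to 128.5 in NC, above NC without overlap in both knockouts, with 0.48 ± 0.18 (edgeR adjusted p = 0.0766) and 0.47 ± 0.18 (edgeR adjusted p = 0.0652).

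**Figure D2:**
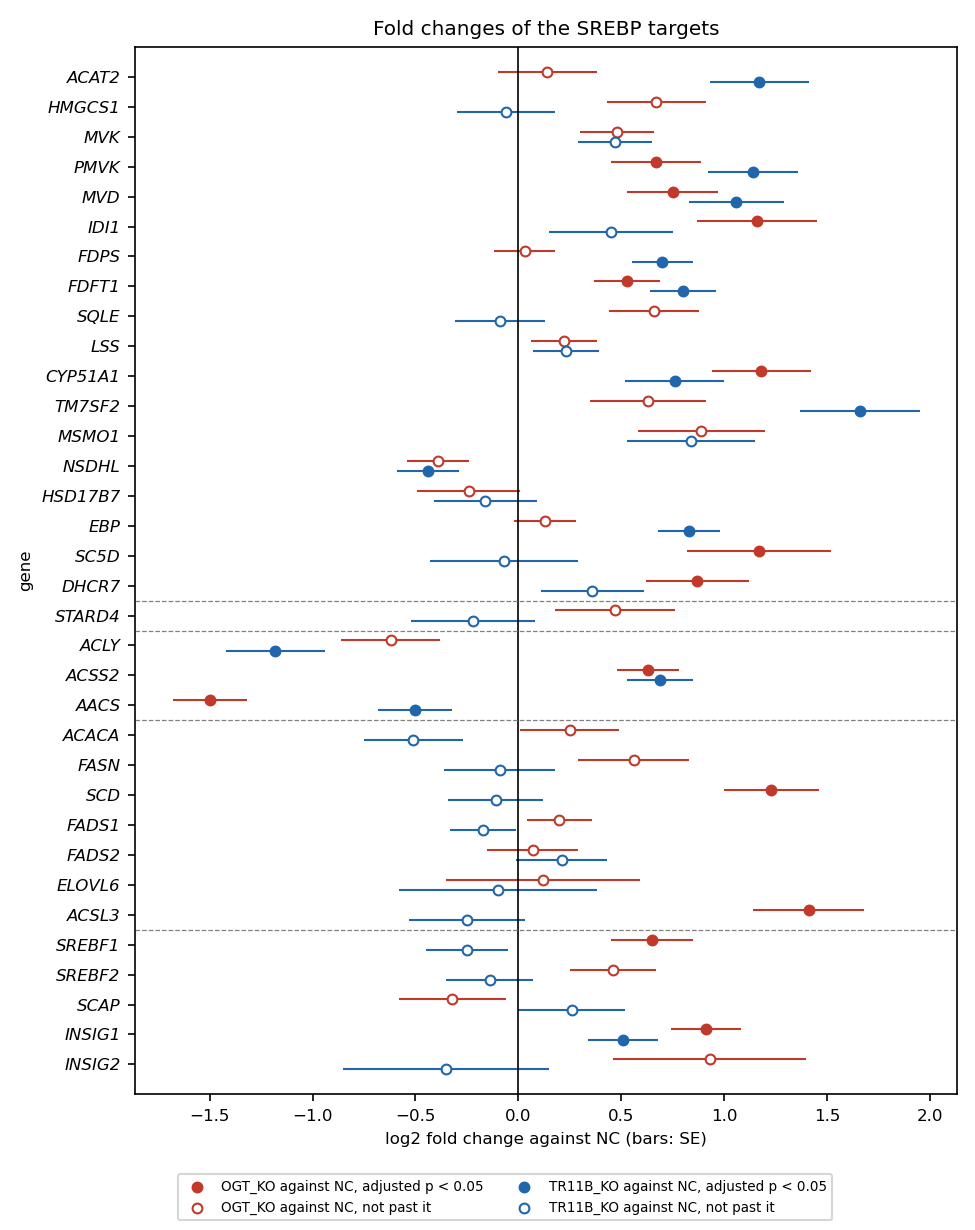
The log2 fold change against NC of each member is drawn as a point with its SE, with OGT_KO above TR11B_KO in each row. Of the 18 sterol enzymes, 16 lay to the right of 0 in OGT_KO and 13 in TR11B_KO, SCD and ACSL3 lay at 1.23 and 1.41 in OGT_KO against −0.11 and −0.25 in TR11B_KO, and AACS and ACLY lay to the left in both.

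Of the 11 enzymes from squalene synthesis to cholesterol, 4 rose in OGT_KO with none falling, and 4 rose and 1 fell in TR11B_KO. That was 36.4% higher in each, beside 8.26% and 13.2% of all tested genes, and 9.09% lower in TR11B_KO, beside 14.3%. The medians of their log2 fold changes were 0.63 in OGT_KO and 0.36 in TR11B_KO. CYP51A1 (chromosome 7, 92112153 to 92134803), the lanosterol demethylase, had 23.4, 23.15 and 19.55 CPM in OGT_KO, 23.3, 11.9 and 14.1 in TR11B_KO, and 9.56, 9.25 and 10.4 in NC. All 6 knockout libraries exceeded all NC libraries. CYP51A1 rose by 1.18 ± 0.24 in OGT_KO (edgeR adjusted p = 0.00486, and at most 0.0313 under 21 alternatives) and by 0.76 ± 0.24 in TR11B_KO (edgeR adjusted p = 0.0328). The TR11B_KO call was lost without TR11B_KO replicate 1 and without any single OGT_KO or NC library, at 0.48 to 0.80 with an adjusted p of 0.051 to 0.117. FDFT1 (chromosome 8, 11795582 to 11839298), the squalene synthase, had 203, 180 and 181 CPM in OGT_KO, 259, 198 and 223 in TR11B_KO, and 127, 135 and 127 in NC, again with no overlap with NC. It rose by 0.53 ± 0.16 in OGT_KO (edgeR adjusted p = 0.0335) and by 0.80 ± 0.16 in TR11B_KO (edgeR adjusted p = 0.0029). In OGT_KO the FDFT1 call was lost without any single OGT_KO or NC library or TR11B_KO replicate 3, at 0.47 to 0.56 with an adjusted p of 0.0501 to 0.14.

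TM7SF2 and EBP, which reduce and isomerize sterol double bonds, were highest in TR11B_KO. TM7SF2 (chromosome 11, 65111872 to 65116230) had 17.99, 13.6 and 15.4 CPM in OGT_KO, 22.9, 50.1 and 22.9 in TR11B_KO, and 8.79, 10.45 and 11.2 in NC. The 3 groups did not overlap, and TR11B_KO replicate 2 stood above its partners. TM7SF2 had 0.63 ± 0.28 in OGT_KO (edgeR adjusted p = 0.136) and rose by 1.66 ± 0.29 in TR11B_KO (edgeR adjusted p = 0.00126), with a direct difference of −1.03 ± 0.28 (edgeR adjusted p = 0.013), or −0.93 without OGT_KO replicate 2 (adjusted p = 0.0727). That direct call was also lost with limma on log2(FPKM + 1) without a filter and with length and GC offsets, the last at −0.35 (adjusted p = 0.133). EBP (chromosome X, 48521808 to 48528716) had 453, 382 and 464 CPM in OGT_KO, 688, 720 and 701 in TR11B_KO, and 381, 383 and 419 in NC. The OGT_KO and NC libraries of EBP overlapped, while the TR11B_KO libraries lay together above both. EBP had 0.13 ± 0.15 in OGT_KO (edgeR adjusted p = 0.581), rose by 0.83 ± 0.15 in TR11B_KO (edgeR adjusted p = 0.00184), and differed directly by −0.70 ± 0.15 (edgeR adjusted p = 0.0038). With an offset for gene length, the EBP calls were lost, at 0.39 in TR11B_KO against NC (adjusted p = 0.0925) and −0.35 between the knockouts (adjusted p = 0.106). EBP was the shortest member, at 1125 bases.

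The last steps showed the opposite order. SC5D (chromosome 11, 121292771 to 121313410), a sterol desaturase, had 3.16, 4.39 and 2.55 CPM in OGT_KO, 1.57, 1.97 and 0.743 in TR11B_KO, and 1.86, 1.15 and 1.46 in NC. DHCR7 (chromosome 11, 71427287 to 71449043), the reductase that yields cholesterol, had 876, 756 and 819 CPM in OGT_KO, 339, 855 and 529 in TR11B_KO, and 462, 462.5 and 417 in NC. The OGT_KO libraries of both genes lay above NC, while the TR11B_KO libraries of DHCR7 ran from below NC to within the range of OGT_KO, with replicate 2 the highest. SC5D rose in OGT_KO by 1.17 ± 0.35 (edgeR adjusted p = 0.0341) and DHCR7 by 0.87 ± 0.25 (edgeR adjusted p = 0.0293), against −0.07 ± 0.36 and 0.36 ± 0.25 in TR11B_KO (edgeR adjusted p = 0.904 and 0.307). Directly, OGT_KO was higher at SC5D by 1.25 ± 0.36 (edgeR adjusted p = 0.0163), a call that ended without OGT_KO replicate 2 or TR11B_KO replicate 3 at 0.93 to 1.01 (adjusted p 0.0602 to 0.0923) and with either offset. At DHCR7 the direct difference was 0.51 ± 0.25 (edgeR adjusted p = 0.136). Against NC, the DHCR7 call was lost without any single OGT_KO or NC library, at 0.82 to 0.92 (adjusted p 0.0707 to 0.104). The SC5D call was lost without OGT_KO replicate 1 or 2 or any NC library, at 0.93 to 1.36 (adjusted p 0.0604 to 0.157).

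Of the remaining enzymes of this stretch, NSDHL fell in TR11B_KO, and SQLE, LSS, MSMO1 and HSD17B7 passed in neither comparison with NC. NSDHL, which helps remove methyl groups from the sterol ring, had 78.3, 69.8 and 67.0 CPM in OGT_KO, 75.0, 68.8 and 63.8 in TR11B_KO, and 92.7, 96.8 and 92.6 in NC, with all knockout libraries below NC. It had −0.39 ± 0.15 in OGT_KO (edgeR adjusted p = 0.0935) and fell by 0.44 ± 0.15 in TR11B_KO (edgeR adjusted p = 0.0465). The NSDHL call was lost without any single OGT_KO or NC library or TR11B_KO replicate 3, at −0.46 to −0.39 (adjusted p 0.0645 to 0.149). SQLE, the squalene epoxidase, had 17.1, 19.4 and 16 CPM in OGT_KO, 12.6, 7.58 and 11.1 in TR11B_KO, and 11.5, 11.2 and 10.6 in NC. Its OGT_KO libraries lay above the other 6, with 0.66 ± 0.22 against NC (edgeR adjusted p = 0.051) and a direct difference of 0.75 ± 0.22 that passed (edgeR adjusted p = 0.0184). That direct call ended without OGT_KO replicate 1 or 2, at 0.67 to 0.76 (adjusted p 0.0502 to 0.0823). MSMO1, a sterol methyl oxidase, had 4.64, 5.58 and 5.21 CPM in OGT_KO, 7.09, 3.35 and 4.46 in TR11B_KO, and 2.01, 2.35 and 3.99 in NC. Only the OGT_KO libraries cleared NC, with log2 fold changes of 0.89 ± 0.31 in OGT_KO and 0.84 ± 0.31 in TR11B_KO (edgeR adjusted p = 0.0629 and 0.0598). LSS, the lanosterol synthase, lay at 342 to 394 CPM in OGT_KO, 319 to 402 in TR11B_KO and 290 to 332 in NC, and HSD17B7, a sterol ketoreductase, at 4.14 to 5.72, 3.48 to 6.02 and 5.37 to 5.96 CPM in these groups.

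Supply of acyl units moved in both directions. AACS (chromosome 12, 125065435 to 125143316), which activates acetoacetate for lipid synthesis, had 22.4, 23.35 and 20.6 CPM in OGT_KO, 44.4, 36.8 and 51.05 in TR11B_KO, and 65.5, 66.15 and 56.0 in NC. The 3 groups did not overlap, with OGT_KO lowest and TR11B_KO between. AACS fell by 1.5 ± 0.18 in OGT_KO (edgeR adjusted p = 0.000114) and by 0.50 ± 0.18 in TR11B_KO (edgeR adjusted p = 0.0461), and OGT_KO was below TR11B_KO, with a log2 fold change of −1.0 ± 0.18 (edgeR adjusted p = 0.000942). The OGT_KO and direct calls of AACS passed under all 21 alternatives, whereas the TR11B_KO call was lost without any single library other than TR11B_KO replicate 3, at −0.58 to −0.36 (adjusted p 0.0565 to 0.158). ACLY (chromosome 17, 41866917 to 41930545), which splits citrate into cytosolic acetyl-CoA, had 306, 368 and 328 CPM in OGT_KO, 291, 130 and 258 in TR11B_KO, and 542, 546 and 448 in NC. All knockout libraries lay below NC, and TR11B_KO replicate 2 was the lowest. ACLY had −0.62 ± 0.24 in OGT_KO (edgeR adjusted p = 0.0916) and fell by 1.18 ± 0.24 in TR11B_KO (edgeR adjusted p = 0.00355, passing under all 21 alternatives). ACSS2 (chromosome 20, 34874989 to 34927959), which makes acetyl-CoA from acetate, had 108, 91.3 and 105 CPM in OGT_KO, 99.8, 115 and 102 in TR11B_KO, and 63.8, 68.4 and 64.1 in NC, with every knockout library above NC. It rose by 0.63 ± 0.15 in OGT_KO (edgeR adjusted p = 0.0124) and by 0.69 ± 0.16 in TR11B_KO (edgeR adjusted p = 0.00533), with a direct difference of −0.06 ± 0.15 (edgeR adjusted p = 0.793). In OGT_KO, ACSS2 did not pass without OGT_KO replicate 1 or 3 or NC replicate 1 or 3, at 0.59 to 0.62 (adjusted p 0.0508 to 0.0715).

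Of the 7 fatty acid enzymes, 2 rose in OGT_KO, none passed in TR11B_KO, and 3 were higher in OGT_KO than in TR11B_KO, with none lower. That was 28.6% higher in OGT_KO beside 8.26% of all tested genes, 0% called in TR11B_KO beside 27.6%, and 42.9% higher in the direct comparison beside 16.7%. SCD (chromosome 10, 100347233 to 100364826), the desaturase that makes monounsaturated acyl chains, had 161, 184 and 152 CPM in OGT_KO, 66.3, 43.3 and 86.4 in TR11B_KO, and 73.5, 80.8 and 57.5 in NC. The OGT_KO libraries lay far above the other 6, which overlapped. SCD rose in OGT_KO by 1.23 ± 0.23 (edgeR adjusted p = 0.00255), had −0.11 ± 0.23 in TR11B_KO (edgeR adjusted p = 0.744), and was higher in OGT_KO than in TR11B_KO by 1.34 ± 0.23 (edgeR adjusted p = 0.00069). ACSL3 (chromosome 2, 222861036 to 222944639), which joins fatty acids to coenzyme A and serves lipid droplet growth, had 7.73, 11.5 and 6.86 CPM in OGT_KO, 2.48, 2.64 and 3.10 in TR11B_KO, and 3.80, 3.72 and 2.27 in NC. Its pattern was that of SCD, with OGT_KO apart from the rest. ACSL3 rose in OGT_KO by 1.41 ± 0.27 (edgeR adjusted p = 0.00318), had −0.25 ± 0.28 in TR11B_KO (edgeR adjusted p = 0.526), and was higher in OGT_KO by 1.66 ± 0.28 in the direct comparison (edgeR adjusted p = 0.000557). The OGT_KO and direct calls of SCD and ACSL3 passed under all 21 alternatives.

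FASN (chromosome 17, 82078338 to 82098236), the synthase of palmitate, had 2300, 2312 and 2562 CPM in OGT_KO, 776, 2193 and 1612 in TR11B_KO, and 1700, 1655 and 1506 in NC. The OGT_KO libraries were the highest, but TR11B_KO spanned the range from below NC to near OGT_KO. FASN had 0.56 ± 0.27 in OGT_KO (edgeR adjusted p = 0.161), −0.09 ± 0.27 in TR11B_KO (edgeR adjusted p = 0.84) and 0.65 ± 0.27 directly (edgeR adjusted p = 0.0792), and passed in none. ACACA, the carboxylase that makes malonyl-CoA, had 41.99, 53.95 and 46.6 CPM in OGT_KO, 32.2, 19.1 and 32.8 in TR11B_KO, and 43.0, 47.55 and 29.4 in NC. OGT_KO and NC overlapped, as did TR11B_KO and NC, while OGT_KO lay above TR11B_KO. That direct difference was 0.76 ± 0.24 (edgeR adjusted p = 0.0242), and it was lost without OGT_KO replicate 2 or 3, at 0.66 to 0.78 (adjusted p 0.0575 to 0.111), and with either offset. The long-chain desaturases FADS1 and FADS2 and the elongase ELOVL6 passed in no comparison. FADS1 and FADS2 lay at 64.3 to 67.3 and 43.0 to 44.9 CPM in OGT_KO, 48.4 to 56.0 and 32.7 to 68.2 in TR11B_KO, and 52.2 to 63.0 and 39.96 to 43.0 in NC, and they overlap each other by 801 bases on opposite strands. ELOVL6 had at most 35 counts in a library.

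**Figure D3:**
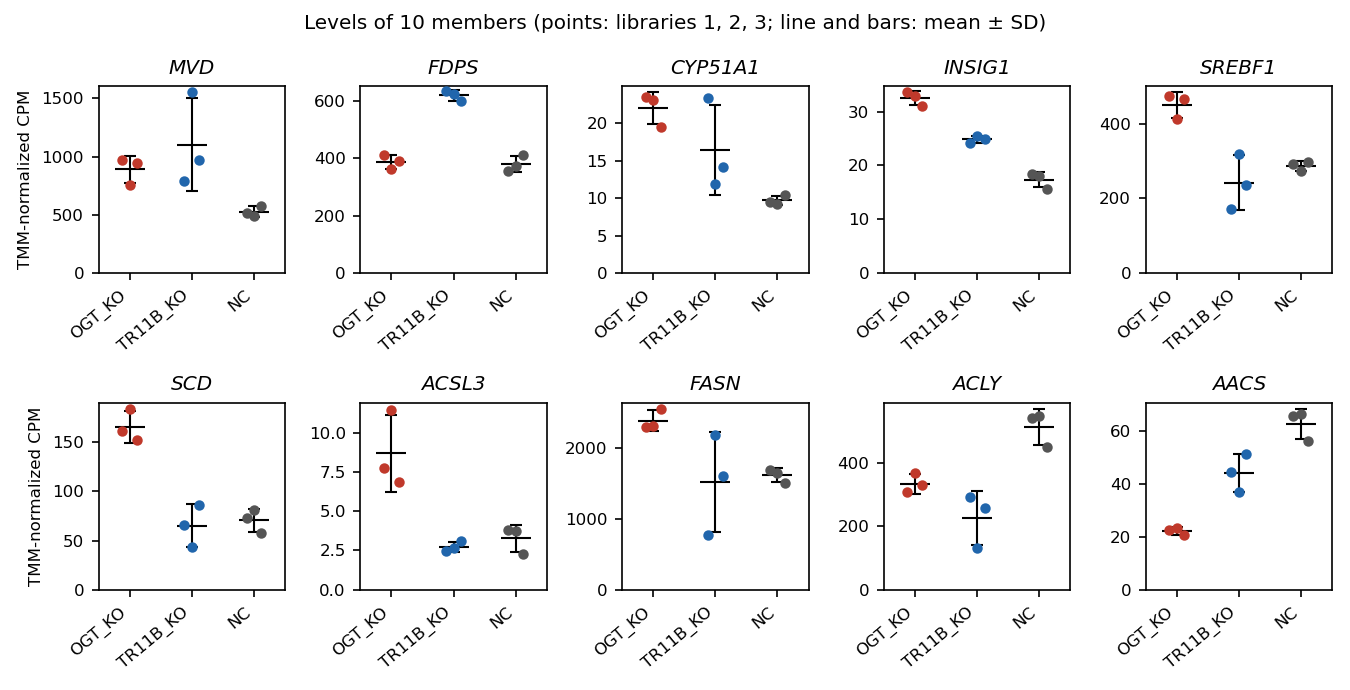
Levels in CPM of 10 members in each library, with the mean and SD of each group of 3; OGT_KO, TR11B_KO and NC stand from left to right. The OGT_KO points of SCD and ACSL3 stand above the other groups, the TR11B_KO points of FDPS do so, MVD, CYP51A1 and INSIG1 stand above NC in both knockouts, and AACS is lowest in OGT_KO.

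Among the 5 regulators, 2 rose in OGT_KO and 1 rose in TR11B_KO, with median log2 fold changes of 0.65 and −0.14. These counts are 40% and 20% of 5 genes, beside 8.26% and 13.2% of all tested genes. INSIG1 (chromosome 7, 155297878 to 155310235), the retention protein that is itself a classical SREBP target, had 33.6, 33.0 and 31.1 CPM in OGT_KO, 24.2, 25.4 and 24.9 in TR11B_KO, and 18.4, 18.1 and 15.7 in NC. The 3 groups did not overlap and stood in that order. INSIG1 rose by 0.91 ± 0.17 in OGT_KO (edgeR adjusted p = 0.00277, at most 0.0209 under 21 alternatives) and by 0.51 ± 0.17 in TR11B_KO (edgeR adjusted p = 0.0373), with a direct difference of 0.39 ± 0.17 (edgeR adjusted p = 0.09). The TR11B_KO call of INSIG1 was lost without any single OGT_KO or NC library or TR11B_KO replicate 3, at 0.44 to 0.55 (adjusted p 0.0594 to 0.125). SREBF1 (chromosome 17, 17811334 to 17836986) had 474, 411 and 467 CPM in OGT_KO, 172, 318 and 236 in TR11B_KO, and 291, 272 and 297 in NC. Its OGT_KO libraries were above all others, and TR11B_KO replicate 2 lay above NC while its partners lay below. SREBF1 rose in OGT_KO by 0.65 ± 0.20 (edgeR adjusted p = 0.0377), had −0.25 ± 0.20 in TR11B_KO (edgeR adjusted p = 0.392), and was higher in OGT_KO than in TR11B_KO by 0.90 ± 0.20 (edgeR adjusted p = 0.00437). The OGT_KO call of SREBF1 against NC was lost without any single OGT_KO or NC library or TR11B_KO replicate 3, at 0.61 to 0.71 (adjusted p 0.0547 to 0.136), while the direct call passed under all 21 alternatives. In TR11B_KO against NC, SREBF1 passed as lower under 5 of the 21 alternatives. These were library totals alone, length and GC offsets, limma on log2(FPKM + 1) with the filter or log2(FPKM + 0.1), and leaving out TR11B_KO replicate 2. SREBF1 overlaps RAI1 by 120 bases on the opposite strand. RAI1 held 11.1% as many counts and had −0.68 in OGT_KO (edgeR adjusted p = 0.05) and −1.07 in TR11B_KO (edgeR adjusted p = 0.00392), and its part in the SREBF1 result was not tested.

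SREBF2 (chromosome 22, 41833105 to 41907305), whose promoter window held the sterol element, had 282, 250 and 263 CPM in OGT_KO, 120, 227 and 177 in TR11B_KO, and 203, 199 and 176 in NC. OGT_KO lay above the other 6 libraries, but its 0.46 ± 0.21 against NC did not pass (edgeR adjusted p = 0.135). The direct difference was 0.60 ± 0.21 (edgeR adjusted p = 0.0369), and it was lost without any single library other than TR11B_KO replicate 2, at 0.35 to 0.65 (adjusted p 0.0522 to 0.113). It was also lost with DESeq2, RLE size factors, the CPM filter, only the 2 groups compared, the replicate block and either offset, down to 0.20 with the length offset (adjusted p = 0.562). SCAP, the escort, had 226, 198 and 251 CPM in OGT_KO, 215, 527 and 266 in TR11B_KO, and 276, 267 and 298 in NC, and passed in no comparison. TR11B_KO replicate 2 had the highest SCAP level of the 9 libraries. INSIG2 had 13 to 75 counts in a library and passed in no comparison, with 0.93 ± 0.47 in OGT_KO (edgeR adjusted p = 0.188). STARD4, the sterol carrier, had 2.14 to 2.995 CPM in OGT_KO, 1.23 to 2.24 in TR11B_KO and 1.67 to 2.28 in NC, and passed in none.

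Set side by side, the sterol and fatty acid branches were both above NC in OGT_KO, and in TR11B_KO the sterol branch was above NC while the fatty acid branch was not. In each library the median over a branch of the log2 level minus the NC mean was taken. For the 18 sterol enzymes it was 0.67, 0.46 and 0.55 in OGT_KO, 0.62, 0.40 and 0.48 in TR11B_KO, and −0.03, 0 and 0.01 in NC. For the 7 fatty acid enzymes it was 0.30, 0.46 and 0.25 in OGT_KO, −0.28, −0.04 and −0.04 in TR11B_KO, and 0.07, 0.08 and −0.14 in NC. The sterol median of all 6 knockout libraries lay above NC, and the fatty acid median did so in the 3 OGT_KO libraries. By count, 7 of the 18 sterol enzymes rose in OGT_KO, and 8 rose and 1 fell in TR11B_KO. That was 38.9% higher in OGT_KO beside 8.26% of all tested genes, and 44.4% higher and 5.56% lower in TR11B_KO beside 13.2% and 14.3%. Libraries did not overlap with NC, on the higher side, at 72.2% of sterol and 71.4% of fatty acid enzymes in OGT_KO, beside 24.2% of all tested genes. In TR11B_KO the same shares were 50% and 0%, beside 19% of all tested genes. The median fitted log2 fold change was 0.64 for sterol and 0.25 for fatty acid enzymes in OGT_KO, 0.59 and −0.11 in TR11B_KO, and 0 and 0.65 directly between the knockouts, beside 0.03, −0.01 and 0.06 for all tested genes. No test of a branch as a whole was made.

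The fatty acid medians rest on 7 genes and moved with single libraries and with gene length. In OGT_KO the fatty acid median was 0.41 when OGT_KO replicate 2 was left out, 0.39 when NC replicate 2 was, and 0.13 when NC replicate 3 was. In TR11B_KO it was −0.06 and −0.21 when TR11B_KO replicate 1 or 2 was left out, and −0.07 and −0.24 when NC replicate 2 or 3 was. Directly it was 0.28 without TR11B_KO replicate 1. Sterol enzymes had a median length of 2585 bases and fatty acid enzymes of 5576, beside 3965 for all tested genes. Across the 12574 tested genes, which share the same libraries, the rank correlation of the log2 fold change with length was 0.066 in OGT_KO, −0.313 in TR11B_KO and 0.333 between the knockouts. With a length offset the TR11B_KO medians were 0.56 for sterol and 0.12 for fatty acid enzymes, and with length and GC offsets 0.58 and 0.21, so the sign of the fatty acid median in TR11B_KO depended on that choice. Directly between the knockouts, the offsets left fatty acid medians of 0.19 and 0.15. The sterol median stayed between 0.49 and 0.76 in OGT_KO and between 0.35 and 0.65 in TR11B_KO over all 21 alternatives.

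**Figure D4:**
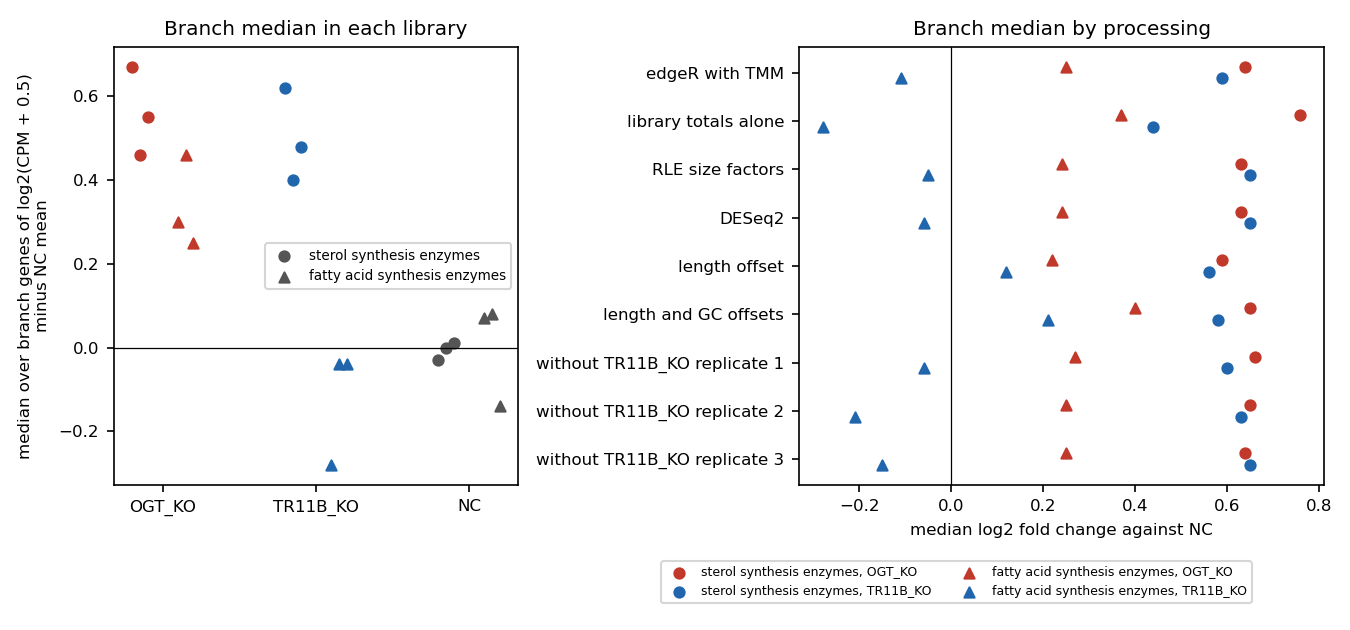
The left panel shows the branch median in each library relative to the NC mean. The right panel shows the median fitted log2 fold change against NC for part of the settings. Those drawn are the main fit, library totals alone, RLE, DESeq2, the offsets and the fits without each TR11B_KO library. The sterol points of both knockouts stayed above 0 in both panels, while the fatty acid median of TR11B_KO was −0.11 with TMM alone and 0.12 with a length offset.

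Levels of different genes can be compared only per length, for which the authors' FPKM values were used. The median NC level was 29.3 FPKM over the sterol enzymes and 11.8 over the fatty acid enzymes, beside 1.40 over all tested genes. EBP was the most abundant member in NC, with 419 ± 22.4 FPKM in OGT_KO, 569 ± 59.0 in TR11B_KO and 354 ± 19.5 in NC (SD, n = 3 each). MVD had 448 ± 37.8, 452 ± 102 and 247 ± 22.6 FPKM in OGT_KO, TR11B_KO and NC. FASN had 306 ± 16.5 FPKM in OGT_KO, 158 ± 58.4 in TR11B_KO and 192 ± 11.8 in NC. ELOVL6, INSIG2 and STARD4 were the lowest members, with NC means of 0.0822, 0.167 and 0.193 FPKM. The 18 sterol enzymes summed to 1988, 1830 and 1946 FPKM in OGT_KO, 2010, 2103 and 2042 in TR11B_KO, and 1299, 1293 and 1394 in NC. The 7 fatty acid enzymes summed to 354, 394 and 381 FPKM in OGT_KO, 127, 234 and 221 in TR11B_KO, and 246, 240 and 216 in NC, mostly through FASN. The sterol sum was thus higher than NC in all knockout libraries, and the fatty acid sum in the OGT_KO libraries. FPKM carries no TMM scaling, and its sum over all tested genes was also higher in the knockouts. That sum was 528800 to 540500 in OGT_KO, 577700 to 594600 in TR11B_KO and 501900 to 522400 in NC.

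Other genes of the pathway were given as 4 lists. Of 14 genes for SREBP processing and sterol sensing, 1 rose and 5 fell in each knockout, with median log2 fold changes of −0.06 in OGT_KO and −0.45 in TR11B_KO. The share was 7.14% higher and 35.7% lower in each, beside 8.26% and 10.1% of all tested genes in OGT_KO and 13.2% and 14.3% in TR11B_KO. ERLIN2, a membrane scaffold of the endoplasmic reticulum, had 5.89, 6.06 and 6.38 CPM in OGT_KO, 5.14, 5.32 and 4.23 in TR11B_KO, and 9.46, 10.4 and 11.0 in NC, and fell by 0.75 ± 0.20 in OGT_KO (edgeR adjusted p = 0.0204) and by 1.07 ± 0.21 in TR11B_KO (edgeR adjusted p = 0.00223). The knockout libraries of ERLIN2 lay below all NC libraries. In OGT_KO the ERLIN2 call was lost without any single OGT_KO or NC library, at −0.81 to −0.70 (adjusted p 0.0576 to 0.0868). VCP, the ATPase that extracts proteins from membranes, fell by 0.70 ± 0.17 and 0.72 ± 0.17 in OGT_KO and TR11B_KO (edgeR adjusted p = 0.0112 and 0.00682), and its OGT_KO call was lost without OGT_KO replicate 1 or 3 or NC replicate 1 or 2, at −0.72 to −0.64 (adjusted p 0.0505 to 0.064). FAF2, a membrane partner of VCP, fell in TR11B_KO by 1.41 ± 0.25 (edgeR adjusted p = 0.00126). The genes that rose were TMEM97 in OGT_KO (0.80 ± 0.26, edgeR adjusted p = 0.0463) and TRIM41 in TR11B_KO (0.73 ± 0.17, edgeR adjusted p = 0.00684). TMEM97 was lost without any single OGT_KO or NC library or TR11B_KO replicate 3, at 0.59 to 0.97 (adjusted p 0.0625 to 0.173).

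Of 12 genes of the other isoprenoid branches, none rose and 2 fell in each knockout, and their medians were −0.24 in OGT_KO and −0.09 in TR11B_KO. The 16.7% lower is near the 10.1% and 14.3% of all tested genes, so the count sets this list little apart. DHDDS, which takes part in dolichol synthesis, fell by 0.82 in OGT_KO (edgeR adjusted p = 0.00696) and by 0.72 in TR11B_KO (edgeR adjusted p = 0.0102), and FNTB, a farnesyltransferase subunit, fell by 1.04 and 1.84 (edgeR adjusted p = 0.03 and 0.00125). The DHDDS call in TR11B_KO was lost without NC replicate 1 or 2, at −0.69 to −0.67 (adjusted p 0.0512 to 0.0561), and the FNTB call in OGT_KO without OGT_KO replicate 2 or 3 or any NC library, at −1.12 to −0.93 (adjusted p 0.0696 to 0.124). Of 17 genes for sterol transport and esterification and LXR targets, 13 were tested, and 1 rose and 1 fell in OGT_KO, while 5 fell in TR11B_KO, with medians of −0.21 and −0.37. In OGT_KO the share was 7.69% each way, at or below the 8.26% higher and 10.1% lower of all tested genes, and in TR11B_KO it was 38.5% lower beside 14.3%. NPC1, which carries cholesterol out of lysosomes, had 52.3, 67.6 and 56.0 CPM in OGT_KO, 17.9, 16.1 and 27.9 in TR11B_KO, and 37.97, 38.1 and 26.7 in NC. The OGT_KO libraries were above all others, and TR11B_KO replicate 3 overlapped with NC. NPC1 rose in OGT_KO by 0.78 ± 0.23 (edgeR adjusted p = 0.031), fell in TR11B_KO by 0.73 ± 0.23 (edgeR adjusted p = 0.0305), and differed directly by 1.51 ± 0.23 (edgeR adjusted p = 0.000344). Its OGT_KO call was lost without any single OGT_KO or NC library, at 0.62 to 0.86 (adjusted p 0.0658 to 0.137), and its TR11B_KO call without TR11B_KO replicate 1 or NC replicate 1 or 2, at −0.65 to −0.57 (adjusted p 0.0678 to 0.118). SCARB1, a lipoprotein receptor, fell in OGT_KO by 1.36 ± 0.17 (edgeR adjusted p = 0.000171), and SOAT1, which esterifies cholesterol, fell in TR11B_KO by 1.18 ± 0.24 (edgeR adjusted p = 0.0035). Of 20 other genes for fatty acid synthesis and elongation, 18 were tested, none rose in either knockout, 2 fell in OGT_KO and 3 fell in TR11B_KO, with medians of 0.06 and −0.11. The lower shares, 11.1% and 16.7%, are about the 10.1% and 14.3% of all tested genes. The falls included ACACB, the mitochondrial counterpart of ACACA, which fell in OGT_KO by 1.67 ± 0.29 (edgeR adjusted p = 0.00149), and MID1IP1, which promotes polymerization of the carboxylases and fell by 0.97 in OGT_KO (edgeR adjusted p = 0.0199) and by 0.94 in TR11B_KO (edgeR adjusted p = 0.0167). MID1IP1 was lost in OGT_KO without any OGT_KO library or NC replicate 1 or 2, at −1.0 to −0.90 (adjusted p 0.0619 to 0.0802), and in TR11B_KO without NC replicate 1 or 2, at −0.94 to −0.86 (adjusted p 0.0533 to 0.0673).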

How the data were processed

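The 34 members and the 4 other gene lists were chosen with earlier results of these data known. The count table deposited by the authors holds whole-number counts per gene with no normalization, and the authors' FPKM table holds counts divided by gene length and library total. Per the submitters' processing notes, fastp, HISAT, HTSeq, R 3.2.0 and DESeq2 were named, with GRCh38. Their settings were not given. Groups came from the sample titles. Counts were fitted with edgeR 4.0.16 in R 4.3.3: filterByExpr, TMM factors, robust quasi-likelihood F test, all 9 libraries, 1 mean per group, Benjamini-Hochberg adjustment over 12574 genes, calls at an adjusted p under 0.05. The SE is the absolute log2 fold change over the square root of F. Alternatives used DESeq2 1.42.0, other scalings and filters, limma 3.58.1 on log2(FPKM + 1) or log2(FPKM + 0.1), only the 2 groups compared, a replicate block, each library left out, a length offset and, chosen after seeing the data, length and GC offsets fitted by lowess (span 0.3). Length was the ratio of count to FPKM, within 0.01 of a whole number for 17919 of 17923 genes. The fit was tested on simulated data. All 34 members are named. Up to 4 called genes per other list, by smallest adjusted p, were eligible, and some are not reported here. Promoter sequences are RefSeq's.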

Additional observations from a re-analysis of the deposited data

How the results depend on the processing

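No call of a member changed sign under the 21 alternatives. Of the 13 calls in each comparison, 5 in OGT_KO against NC, 7 in TR11B_KO against NC and 5 between the knockouts passed under all of them. Fitting only the 2 groups compared gave 23 called members and 5095 called genes in OGT_KO, beside 13 and 2303, and 2251 genes in TR11B_KO, beside 3469. Leaving out single libraries gave 6 to 22 called members in OGT_KO, 9 to 14 in TR11B_KO and 7 to 19 directly, and 1072 to 4536, 1813 to 4463 and 2401 to 5307 called genes. The highest OGT_KO counts, 22 members and 4536 genes, came without TR11B_KO replicate 2. Between the knockouts, 8 members were called with the length offset and 20 with limma on log2(FPKM + 0.1), beside 13. In OGT_KO, PMVK and SREBF1 were lost with RLE size factors and with the length offset, and SC5D with both offsets. In TR11B_KO, AACS was lost with every alternative of normalization or filter except library totals and 2 of the limma fits, NSDHL with DESeq2, RLE and other filters, and CYP51A1 and INSIG1 with library totals and limma. Library totals alone moved the median of all genes to 0.15 in OGT_KO, −0.15 in TR11B_KO and 0.31 directly. The calls over all genes were then 1369 higher and 890 lower, 1180 and 2030, and 3084 and 1268, beside 1039 and 1264, 1666 and 1803, and 2104 and 2070. With limma on log2(FPKM + 1) they were 1690 and 903, 1192 and 1958, and 3339 and 1262. The sterol median in OGT_KO was 0.76 with library totals alone and 0.49 with limma on log2(FPKM + 1), with or without the filter. In TR11B_KO it was 0.44 with library totals, 0.35 with limma on log2(FPKM + 1) and 0.42 with limma on log2(FPKM + 0.1). Directly it was 0.26, 0.24 and 0.27 in the same order. The fatty acid median in OGT_KO was 0.43 with the CPM filter (CPM of 1 in 3 libraries, which drops ELOVL6), 0.40 with both offsets, and 0.13 to 0.41 without single libraries. In TR11B_KO it was −0.28 with library totals and with limma on log2(FPKM + 1), −0.32 with limma on log2(FPKM + 0.1), 0.12 with the length offset and 0.21 with both offsets. Directly it was 0.96 with library totals, 1.03 with limma on log2(FPKM + 0.1), 0.19 and 0.15 with the offsets, 0.46 when ACLY, ACSS2 and AACS were added, and 0.28 to 0.69 without single libraries. Beyond fewer genes or libraries, the cause of these shifts was not tested. The replicate number did not pair the libraries: correlations of same-numbered deviations ran from −0.199 to 0.0687. With it as a block, 9, 9 and 11 members were called in the 3 comparisons, and 1609, 2612 and 3403 genes. Members with few counts (ELOVL6, INSIG2) had SEs of 0.47 to 0.50. At INSIG2 in OGT_KO a difference of 0.93, larger than the 0.75 that passed at MVD, did not pass (edgeR adjusted p = 0.188). ELOVL6 had only 0.12 in OGT_KO and −0.10 in TR11B_KO. Of 2136 single-member values, 98 had the other sign with neither value past the threshold.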
